A study of Mus musculus with 8 samples.

Results

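The genes described here carry the structured noncoding RNAs of the nucleus and nucleolus that appear in 5 deposited small RNA tables of the mouse chromatoid body series. Members were taken by gene name, from the prefixes Snora, Scarna, Rnu, Rn7s, Rny, Rmrp, Rpph1, Vaultrc and n-R5s, with no use of their levels. The rule found 47 of the 10822 named features that the 5 tables hold together. They comprised 30 H/ACA box small nucleolar RNA genes (Snora), 8 Cajal body RNA genes (Scarna), 6 genes named Rnu, Rmrp, Rpph1 and the vault RNA gene Vaultrc5. No feature began with Rn7s, Rny or n-R5s. Of the 47 genes, 40 were listed in the supernatant table, 36 in the pellet table, 31 in the ACR IP table, 22 in the MVH IP table and 16 in the round spermatid table. The 7 genes listed in every table were Rmrp, Rnu11, Rnu12, Rnu1b2, Rnu73b, Rpph1 and Snora31.

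The study profiled RNA along a purification of chromatoid bodies, the perinuclear RNA and protein granules of haploid male germ cells, from testes of C57BL/6 mice that were 6 weeks old or older. The shared protocol describes dissociated testis cells fixed with formaldehyde, sonicated and spun, which gave a lysate, a supernatant, a first pellet (pellet1) and, after a further sonication and filtration, a second pellet (pellet2). The protocol precipitates the second pellet, while the sample labels name testis lysate as the source, with an antibody to MVH, a germ cell RNA helicase of the chromatoid body, or with an antibody to ACR (acrosin, an acrosomal protease) as the control. The last sample was round spermatids sorted from adult testes and titled hetMIWI; the labels do not expand that title. All 8 libraries were made from RNA cut from a gel at 19-33 nt, and MVH IP had 2 libraries while every other group had 1. For the 2 MVH IP libraries there is 1 small RNA column, and whether it pools both is not stated. The pellet table has 1 pellet column that cannot be assigned to pellet1 or pellet2. Each group therefore has 1 value per gene and no replicate error, so no test between groups was possible.

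H/ACA RNAs fold into a pair of hairpins and guide dyskerin, the pseudouridine synthase, to uridines of ribosomal RNA. Cajal body RNAs are guides of the same or the C/D kind that modify spliceosomal RNAs in the Cajal body, and the U RNAs are the catalytic and recognition RNAs of the spliceosome and of histone mRNA processing. All of these are longer than the RNA that was sequenced, so every value below is the level of a 19-33 nt fragment of such an RNA, not of the whole molecule, and the tables do not say from which stretch the fragments came. Values are FPKM, read counts scaled to the length of the gene model and to the size of the library. The tables were scaled separately, so ratios to the lysate are within a table, and levels set across tables carry that limit. In bulk samples, fewer cells of a type and less RNA per cell cannot be told apart.

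The germ cell microRNA gene Mir34c was above 0 in every column, and in the fraction columns its level ran from 78133.2 FPKM in the ACR IP to 5893180 FPKM in the supernatant. Next to microRNA genes the structured RNA genes were a small part of the summed FPKM of each column. Their summed FPKM made up 0.140% of the lysate column, 0.113% of the supernatant, 0.205% of the pellet, 0.0618% of the MVH IP and 0.511% of the round spermatid column. In the ACR IP the share was 0.000407%. C/D box snoRNA genes (Snord) held more in each of these columns, from 0.256% in the MVH IP to 3.97% in the pellet. FPKM is scaled to the length of the gene model, so none of these is a share of reads.

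The U RNA genes gave the highest levels of the group in most columns. Their spliceosomal sequences, from GENCODE M21 (GRCm38), are shown because Rnu11, Rnu12 and Rnu1b2 carried most of the signal that could be measured well. Capitals mark the match to AATTTNT, the letters searched as an Sm-like site on the RNA strand. The match occurred in 4 of the 4 U RNA members (Rnu7 is the other), in 22.2% of all 1383 GENCODE snRNA transcripts and in 1.92% of 1507 snoRNA transcripts, which vary in length.
Rnu11: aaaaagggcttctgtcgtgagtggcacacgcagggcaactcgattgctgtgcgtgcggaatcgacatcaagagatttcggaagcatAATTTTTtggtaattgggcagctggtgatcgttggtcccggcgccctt
Rnu12: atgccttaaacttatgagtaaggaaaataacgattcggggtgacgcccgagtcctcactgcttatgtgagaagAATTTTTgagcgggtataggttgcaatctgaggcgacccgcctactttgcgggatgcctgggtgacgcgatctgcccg
Rnu1b2: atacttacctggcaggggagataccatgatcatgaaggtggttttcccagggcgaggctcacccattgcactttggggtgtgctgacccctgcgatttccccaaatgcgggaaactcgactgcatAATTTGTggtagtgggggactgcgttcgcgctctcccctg
The Rnu11 and Rnu12 sequences were identical at 57.6% of the positions of the longer RNA when aligned. The Rnu1b2 sequence was identical over all 165 bases to that of Rnu1b1, so a short read of U1 cannot be placed at 1 of these genes, and the Rnu1b2 level is uncertain in that sense.

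Rnu12, the U12 RNA that recognises the branch point of minor introns, was the highest member of the lysate, supernatant and pellet columns. Its FPKM in the supernatant table was 14791.8 in the supernatant and 13483.9 in the lysate, a log2 ratio of 0.13 ± 0.050 without a pseudocount. The ± here and below is a counting error worked out from the test statistic in the authors' deposited table, and it holds no variation between animals or preparations. In the pellet table Rnu12 was at 1927.76 FPKM in the pellet and 32230.9 FPKM in the lysate, which is 16.7-fold lower (log2 ratio -4.06 ± 0.17). The ACR IP table listed it at 0 in the IP against 28002.8 FPKM in the lysate. It was at 1191.61 FPKM in the MVH IP and 5460.98 FPKM in round spermatids. The gene lies at chr15:82980075-82980224 of mm9, the build of the files, where the listed locus is the RNA gene itself.

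Rnu11, the U11 RNA that pairs with the 5′ splice site of the same introns, followed Rnu12 in the fractions of the lysate. It was at 7617.37 FPKM in the supernatant and 7393.16 FPKM in its lysate column (log2 ratio 0.04 ± 0.12). The pellet table gave 1060.22 FPKM in the pellet and 17672.1 FPKM in the lysate (log2 ratio -4.06 ± 0.40). It was listed at 0 in the ACR IP, where the lysate column held 15362.7 FPKM. Its listed locus, chr4:131825994-131826101, has the RefSeq length of 108 bases, shorter than the GENCODE sequence of 134 bases shown above. RefSeq gives mir-801 among the synonyms of Rnu11, so the gene was once catalogued as a microRNA.

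Within a column the scaling of the table cancels, and the order of the 2 minor spliceosome RNAs differed between columns. Rnu11 stood at 0.548 of Rnu12 in the lysate, 0.515 in the supernatant and 0.550 in the pellet. In the MVH IP it stood at 3.59 times Rnu12, with 4273.72 FPKM and rank 163 of 8959 features, the highest member there. In round spermatids it stood at 0.109 of Rnu12, with 594.52 FPKM. The MVH IP and round spermatid tables give no counting error, so the size of these differences against sampling error was not tested.

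**Figure D1:**
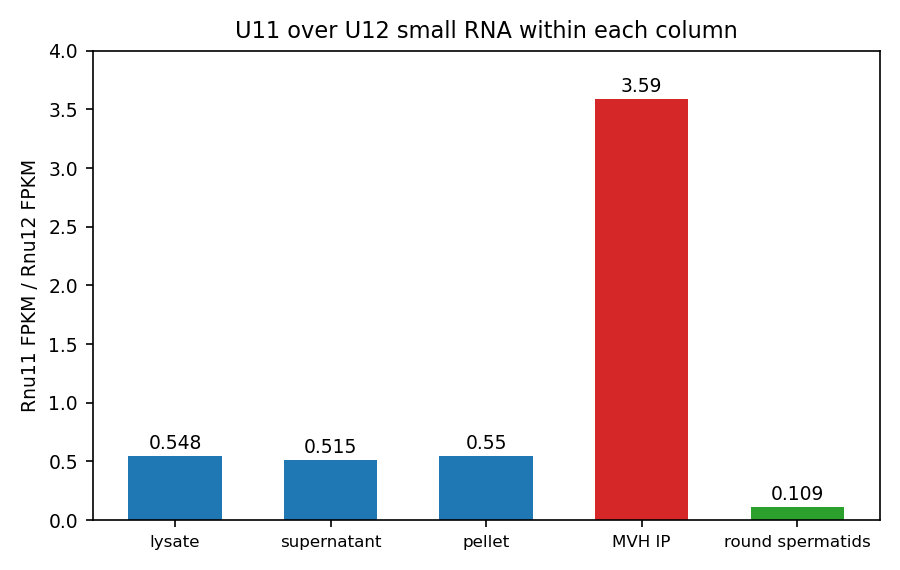
Bars give the FPKM of Rnu11 divided by that of Rnu12 within each of 5 deposited columns, on a linear axis from 0, with 1 value per column and no error. The lysate, supernatant and pellet bars lie between 0.515 and 0.550, the MVH IP bar is at 3.59 and the round spermatid bar at 0.109.

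Rnu1b2, a U1 RNA gene of the major spliceosome, was the only member above 0 in the ACR IP. Its level there was 2.55854 FPKM, against 705.902 FPKM in the lysate column of that table, 276-fold lower. In the supernatant table it was at 406.61 FPKM in the supernatant and 343.191 FPKM in the lysate (log2 ratio 0.24 ± 0.033). The pellet column held 59.9559 FPKM and its lysate column 820.339 FPKM (log2 ratio -3.77 ± 0.11). It was at 94.2361 FPKM in the MVH IP and 1296.6 FPKM in round spermatids. Rnu12 was 39.3 times Rnu1b2 in the lysate, 36.4 times in the supernatant, 32.2 times in the pellet, 12.6 times in the MVH IP and 4.21 times in round spermatids. The listed locus of Rnu1b2, chr3:96177018-96178189, spans 1172 bases and is longer than the RNA of 165 bases. Its counting error was smaller than that of Rnu12 in the supernatant (0.033 against 0.050) and in the pellet (0.11 against 0.17). FPKM is scaled to the length of the gene model, so the multiples above are not ratios of reads.

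Rnu7, the U7 RNA of histone mRNA 3′ end processing, was listed in the MVH IP table alone, at 0.995172 FPKM. Its listed locus of 17304 bases is far longer than the RNA of 62 bases. Rnu73a and Rnu73b bear Rnu names but are C/D box snoRNAs hosted by Rps3a, and both were listed at the locus of that host, chr3:85941862-85946590. Rnu73a was at 1178.97 FPKM in the supernatant and 679.746 FPKM in its lysate column, and at 467.584 FPKM in the pellet against 1624.81 FPKM. Rnu73b was at 1423.03 FPKM in the supernatant and 1303.62 FPKM in its lysate column. The pellet listed Rnu73b at 0 against 3116.08 FPKM, while round spermatids held 1062.23 FPKM and the MVH IP listed it at 0. The FPKM of the pair thus lay close together in the supernatant and apart in the pellet. Counting errors of the log2 ratios were 0.77 (Rnu73a) and 0.55 (Rnu73b) in the supernatant and 1.65 (Rnu73a) in the pellet. A value of 0 has no such error, so the difference in the pellet was not tested.

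The RNA subunits of RNase MRP and RNase P, which cut ribosomal and transfer RNA precursors, were both below the U RNA genes of the spliceosome in the lysate. Rmrp was at 105.235 FPKM in the supernatant and 80.7106 FPKM in its lysate column (log2 ratio 0.38 ± 0.23). In the pellet it was at 26.3154 FPKM against 192.925 FPKM (log2 ratio -2.87 ± 0.58). It was at 34.6731 FPKM in the MVH IP and 237.383 FPKM in round spermatids. Rpph1, the RNase P RNA, was at 42.9647 and 42.0974 FPKM in the supernatant and its lysate column (log2 ratio 0.03 ± 0.30). The pellet column held 5.23332 FPKM against 100.627 FPKM (log2 ratio -4.27 ± 1.07). Rpph1 was at 26.4658 FPKM in the MVH IP and 3.34658 FPKM in round spermatids, where it was the lowest member above 0. Rmrp was 1.92 times Rpph1 in the lysate, 2.45 times in the supernatant, 5.03 times in the pellet, 1.31 times in the MVH IP and 70.9 times in round spermatids. The round spermatid multiple rests on Rpph1 at rank 951 of 1014 features. Neither that column nor the MVH IP gives a counting error. Both genes were listed at 0 in the ACR IP.

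Vaultrc5, an RNA of the cytoplasmic vault particle, was at 12.0706 FPKM in the supernatant and 15.0787 FPKM in its lysate column (log2 ratio -0.32 ± 0.46). The pellet held 3.84272 FPKM against 36.0431 FPKM (log2 ratio -3.23 ± 1.11). Both immunoprecipitations listed it at 0.

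**Figure D2:**
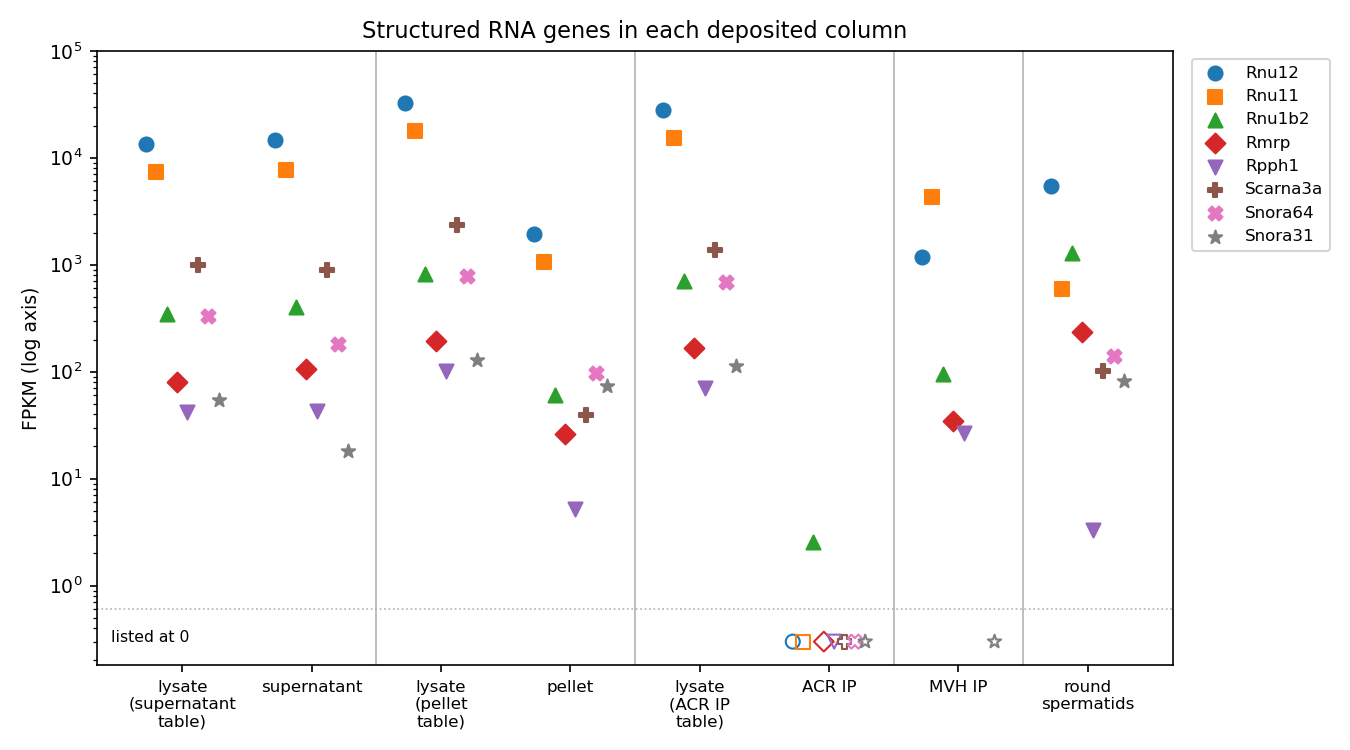
Points give the FPKM of 8 members in each deposited column on a log axis, 1 value per column, with open symbols at the bottom for members listed at 0; a member that a table does not list has no symbol there, and vertical lines part the separately scaled tables. Rnu12 and Rnu11 lead the lysate, supernatant, pellet and MVH IP columns, and Rnu1b2 is the only one of the 8 above 0 in the ACR IP.

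Among the Cajal body RNA genes, Scarna17 was listed at 0 in the lysate of the supernatant and pellet tables. It stood at 121.648 FPKM in the supernatant, 134.133 FPKM in the pellet and 14165.7 FPKM in round spermatids. The authors' deposited q was 0.472 for the supernatant and 0.309 for the pellet, so neither difference from the lysate passed 0.05. In round spermatids it ranked 52 of 1014 features and made up 57.9% of the members' summed FPKM. That column gives no counting error. The RefSeq length of Scarna17 is 62 bases, and FPKM weighs each read of a short model more. The MVH IP listed Scarna17 at 0. Scarna2 was listed in round spermatids alone, at 573.774 FPKM. Scarna10 was at 158.115 FPKM in the supernatant against 118.511 FPKM in its lysate column (log2 ratio 0.42 ± 2.08). In the pellet it was at 233.265 FPKM against 283.28 FPKM (log2 ratio -0.28 ± 2.73). It held 354.078 FPKM in round spermatids.

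Scarna3a was the highest Cajal body RNA gene of the lysate and the member with the lowest pellet ratio among those above 0. It was at 898.935 FPKM in the supernatant and 993.532 FPKM in its lysate column (log2 ratio -0.14 ± 0.29). The pellet column held 39.2776 FPKM against 2374.87 FPKM (log2 ratio -5.92 ± 2.02). Round spermatids held 102.359 FPKM. Scarna8 was at 121.89 FPKM in the supernatant against 205.558 FPKM, and the pellet listed it at 0 against 491.352 FPKM. Scarna13 was at 7.99365 FPKM against 11.9829 FPKM in the supernatant table, and at 0 against 28.643 FPKM in the pellet table. Scarna6 was at 1.3213 FPKM in the supernatant and 0 in its lysate column. Scarna9 was listed in the MVH IP table alone, at 0. The 4 members of this class in the ACR IP table, Scarna10, Scarna13, Scarna3a and Scarna8, were all at 0 in the IP.

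Some of these guide RNAs contain an annotated microRNA hairpin, whose mature products have the size that was sequenced. By RefSeq (GRCm38.p6), 5 members overlapped a hairpin on the same strand: Scarna13 with Mir3069, Scarna3a with Mir1843b, Snora19 with Mir3084-2, Snora34 with Mir1291 and Snora36b with Mir664. That is 13.2% of the 38 Snora and Scarna members, while 1 of the 10 RefSeq genes of these names that are not members did so. For Snord genes the share was 1.06% of 94. The mature sequences of Scarna3a, which had the lowest pellet ratio of the members above 0 in both columns, and of Snora36b, whose microRNA has values of its own in the tables, are shown with the seed (bases 2 to 8) in capitals.
mmu-miR-1843b-5p: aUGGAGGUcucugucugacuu
mmu-miR-1843b-3p: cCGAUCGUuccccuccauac
mmu-miR-664-5p: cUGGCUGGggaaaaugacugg
mmu-miR-664-3p: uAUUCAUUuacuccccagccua
The first pair matched positions 80 to 100 and 118 to 137 of the GENCODE Scarna3a transcript of 140 bases. The second pair matched positions 69 to 89 and 106 to 127 of the Snora36b transcript of 132 bases. Mir664 was at 926.853 FPKM in the supernatant, 643.47 FPKM in its lysate column, and listed at 0 in the pellet against 1538.1 FPKM. Its host Snora36b was at 135.335 FPKM in the supernatant, 106.571 FPKM in its lysate column and 38.7866 FPKM in the pellet against 254.74 FPKM. Whether the reads assigned to Scarna3a or Snora36b came from microRNA products was not tested.

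Among the H/ACA genes, 24 of 30 members (80%) had the letters ACA at exactly 3 bases from the 3′ end of their GENCODE transcript, and 28 of 30 (93.3%) had them at 2 to 4 bases. Of the 98 Snord transcripts, 0 had ACA at 3 bases and 2.04% had it at 2 to 4 bases. The sequences below are a choice from the H/ACA genes named here. Snora43 and Snora21 were the only H/ACA genes above 0 in the MVH IP, and Snora17 shares its listed locus with Snora43. Snora7a had the highest supernatant ratio among H/ACA genes above 0 in both columns. Snora64 was above 0 in the lysate, supernatant, pellet and round spermatid columns, as were Snora5c and Snora31, which are not shown. Capitals mark the ACA near the 3′ end.
Snora43: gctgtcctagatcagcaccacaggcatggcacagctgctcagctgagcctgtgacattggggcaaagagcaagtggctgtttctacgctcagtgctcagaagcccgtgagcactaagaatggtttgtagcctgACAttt
Snora17: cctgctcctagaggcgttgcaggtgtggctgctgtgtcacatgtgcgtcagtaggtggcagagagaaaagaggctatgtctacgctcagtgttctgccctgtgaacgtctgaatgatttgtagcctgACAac
Snora21: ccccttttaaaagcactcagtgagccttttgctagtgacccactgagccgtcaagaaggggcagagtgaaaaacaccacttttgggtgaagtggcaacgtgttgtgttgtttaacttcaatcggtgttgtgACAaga
Snora7a: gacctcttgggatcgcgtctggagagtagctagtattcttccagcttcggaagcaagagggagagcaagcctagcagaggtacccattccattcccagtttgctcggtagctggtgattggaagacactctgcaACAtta
Snora64: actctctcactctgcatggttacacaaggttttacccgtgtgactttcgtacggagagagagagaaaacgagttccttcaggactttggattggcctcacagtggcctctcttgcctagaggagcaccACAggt
Snora17 and Snora43 were identical at 71.2% of the longer RNA, with a longest shared run of 14 bases, shorter than the smallest read of 19 nt. A read mapped with a mismatch could still match both near the 3′ end, and the mapping settings are not known. Whether reads were shared was not tested.

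Snora20, hosted at the Tcp1 locus, was the highest H/ACA gene by FPKM. Its RefSeq length is 61 bases, beside a median of 119 over H/ACA genes, and FPKM weighs each read of a short model more. Its supernatant counting error of 0.59 was close to the 0.60 of Snora64, which had 180.24 FPKM there. Snora20 was at 2305.99 FPKM in the supernatant and 1728.39 FPKM in its lysate column (log2 ratio 0.42 ± 0.59). In the pellet it was at 519.257 FPKM against 4131.43 FPKM (log2 ratio -2.99 ± 1.91). Snora19 was at 94.647 FPKM in the supernatant against 425.361 FPKM (log2 ratio -2.17 ± 3.70), and at 279.145 FPKM in the pellet against 1016.9 FPKM. Its counting error was larger than its ratio in both tables. Snora68 was at 280.736 FPKM against 336.67 FPKM in the supernatant table, and at 82.8332 FPKM against 804.75 FPKM in the pellet table (log2 ratio -3.28 ± 1.87).

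Snora64 was at 180.24 FPKM in the supernatant against 328.926 FPKM (log2 ratio -0.87 ± 0.60). The pellet held 98.0894 FPKM against 786.242 FPKM (log2 ratio -3.00 ± 1.26), and round spermatids 140.392 FPKM. Snora30 was at 379.021 FPKM against 315.651 FPKM in the supernatant table (log2 ratio 0.26 ± 0.56). In the pellet table it was at 341.389 FPKM against 754.509 FPKM (log2 ratio -1.14 ± 0.87), a smaller distance than for any U RNA gene. Snora44 was at 141.058 FPKM in the supernatant against 234.947 FPKM, and at 0 in the pellet against 561.601 FPKM.

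The highest supernatant ratios among H/ACA genes above 0 in both columns were those of Snora7a, Snora69, Snora21 and Snora5c. Snora7a was at 90.5296 FPKM against 16.9636 FPKM (log2 ratio 2.42 ± 1.77), and the pellet listed it at 0. Snora69 was at 54.5437 FPKM against 20.4409 FPKM (log2 ratio 1.42 ± 1.89). Snora21 was at 174.225 FPKM against 69.646 FPKM (log2 ratio 1.32 ± 0.78), and Snora5c at 228.985 FPKM against 114.42 FPKM (log2 ratio 0.99 with the pseudocount, counting error 0.96). The lowest were Snora19, Snora41, Snora31 and Snora74a. Snora41 was at 35.1769 FPKM in the supernatant against 105.464 FPKM, Snora31 at 18.1131 FPKM against 54.3049 FPKM, and Snora74a at 2.68938 FPKM against 8.06303 FPKM. The last 3 share the log2 ratio of -1.58, with counting errors of 1.41, 2.04 and 1.84. All of these but Snora7a, Snora21, Snora5c and Snora41 had a counting error larger than the ratio.

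In the pellet, Snora69 (60.1414 FPKM against 48.8605 FPKM) and Snora16a (104.786 FPKM against 101.874 FPKM) stood at or just above the lysate, with log2 ratios of 0.30 ± 2.67 and 0.04 ± 1.53. Snora70 was at 33.3893 FPKM against 40.5484 FPKM (log2 ratio -0.28 ± 2.73) and Snora5c at 178.196 FPKM against 273.502 FPKM (log2 ratio -0.62 ± 1.59). The lowest above 0 were Snora68, Snora64 and Snora20, given above, and Snora36b (log2 ratio -2.72 ± 2.56). Snora31 was at 73.4162 FPKM against 129.807 FPKM and Snora74a at 10.9006 FPKM against 19.2733 FPKM, with the same log2 ratio of -0.82 in both.

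**Figure D3:**
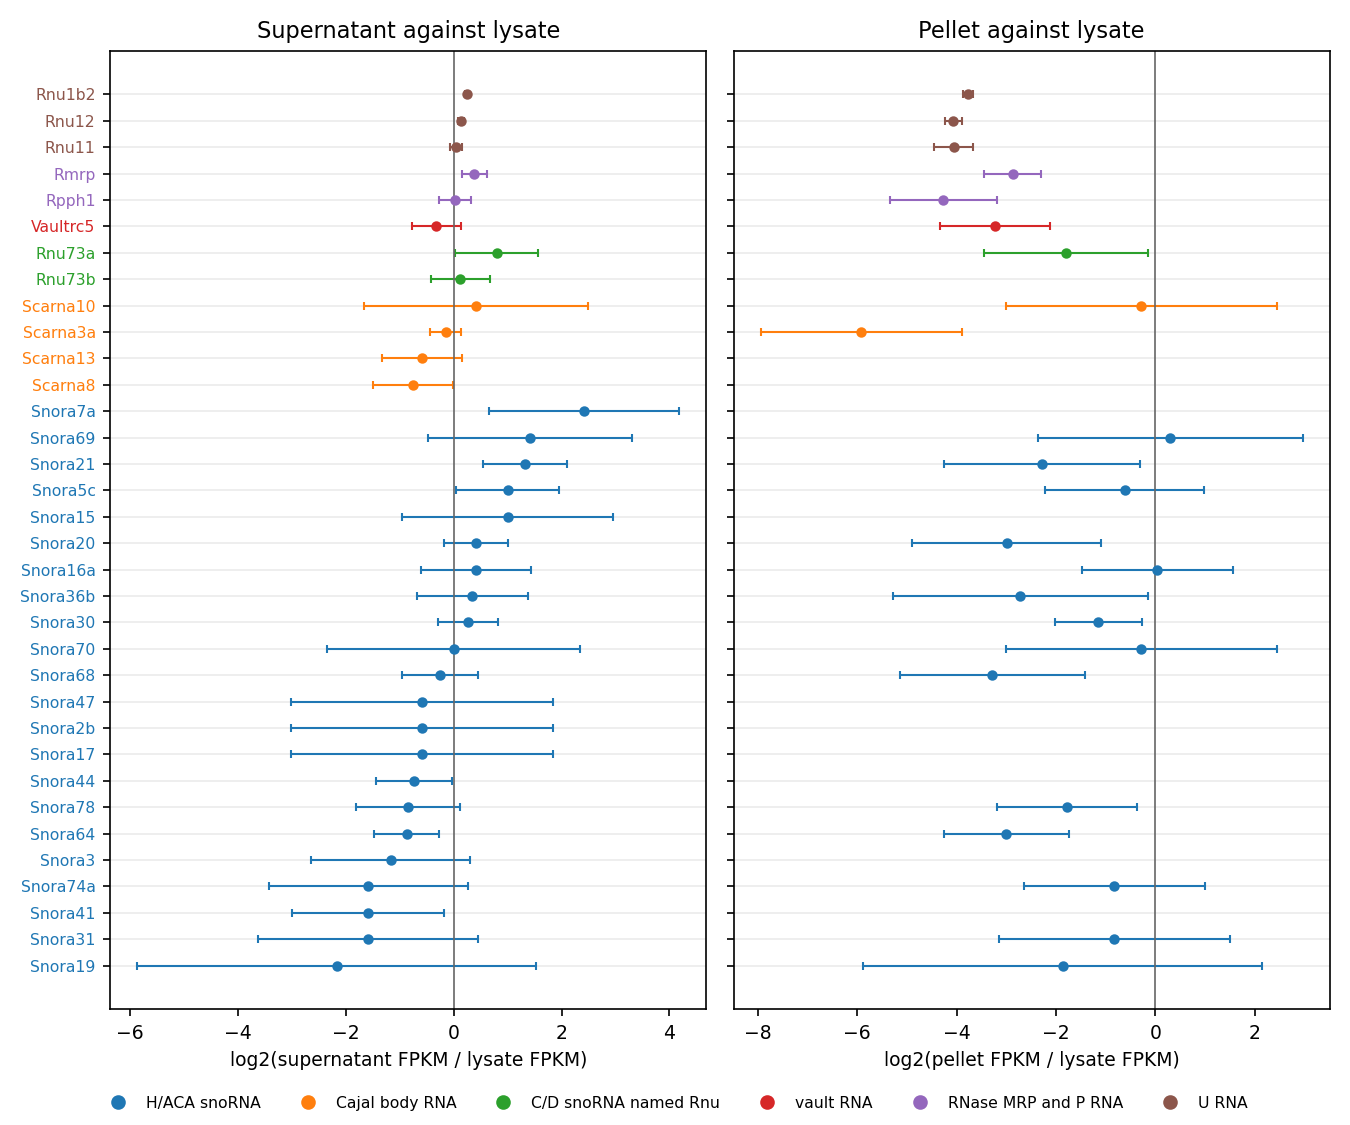
Each line of the plot is 1 of the 34 members above 0 in both columns of the supernatant table, points are log2 ratios to the lysate without a pseudocount, bars are ± 1 counting error, colours mark the class, and a gene at 0 in the pellet has no point in the right panel. The U RNA genes sit near 0 in the supernatant and near -4 in the pellet with short bars, while H/ACA genes scatter over both panels with bars that often cross 0.

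Snora81 had the highest supernatant level of the members listed at 0 in the lysate. It was at 182.834 FPKM in the supernatant, 108.53 FPKM in the pellet and 112.891 FPKM in round spermatids, and was listed at 0 in the lysate column of both tables. The authors' deposited table gave it a q of 7.95e-07 in the supernatant and 0.0168 in the pellet. Its listed locus, chr16:23107552-23127803, is that of Eif4a2 and is shared with the C/D box gene Snord2. Snord2 was at 131979 FPKM in the supernatant, 133655 FPKM in its lysate column and 53599.6 FPKM in the pellet. Whether reads of the neighbour bear on the values of Snora81 was not tested.

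In round spermatids the 6 H/ACA genes listed were Snora5c at 227.904 FPKM, Snora64 at 140.392 FPKM, Snora81 at 112.891 FPKM, Snora31 at 81.1241 FPKM, Snora62 at 52.0208 FPKM and Snora3 at 0. Snora62 was at 11.615 FPKM in the supernatant and 0 in its lysate column. Snora3 was at 28.8157 FPKM in the supernatant against 64.7943 FPKM, and at 0 in the pellet. In the MVH IP, Snora43 was at 623.813 FPKM (rank 318) and Snora21 at 411.397 FPKM (rank 362). Snora43 was not listed in any other table. Snora17, at the same locus, was at 10.4766 FPKM in the supernatant against 15.705 FPKM and was not listed in the MVH IP table.

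Many H/ACA values rest on few reads. The ratio of the value of 1 read between the supernatant and lysate columns can be read from features that share an exact ratio: 93 features share the commonest one, by which 1 supernatant read was worth 0.667 lysate reads. With that step, 22 of the 34 members above 0 in both columns had ratios that equal a quotient of whole numbers up to 10 (tolerance 5e-05 on the log scale), against 0 when the step was moved by 1%. Among H/ACA genes it was 18 of 22. Snora7a corresponded to 8 reads for each lysate read, Snora69 to 4, Snora5c and Snora15 to 3, and Snora31, Snora41 and Snora74a to 1 read for 2 lysate reads. These are lowest terms, so the actual counts may be multiples of them. Snora17, Snora2b and Snora47 share 1 p-value of 0.809876 in the authors' deposited table.

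Across the 40 members of the supernatant table, the median log2((supernatant + 1)/(lysate + 1)) was 0.13, beside 0.02 over all features. At least 2-fold higher were 9 members, where 7.16% of 4999 features were, and at least 2-fold lower were 5, where 5.42% were. Of the 9, 6 were listed at 0 in the lysate (Scarna17, Scarna6, Snora33, Snora62, Snora75 and Snora81). With members at 0 set aside, 34 were left, of which 3 were higher, where 1.81% of features were, and 5 lower, where 2.77% were. All 8 of these were H/ACA genes, and the 12 other members had 0 on either side. The median was 0.13 both over the 26 H/ACA genes listed and over the 14 other members. With genes at 0 set aside it was -0.40 over 22 H/ACA genes and 0.08 over 12 other members, so the sign for H/ACA genes turned on the 4 that the lysate listed at 0. In the authors' deposited table, 2 members had a q below 0.05 and a higher value (Rnu1b2 and Snora81), where 3.77% of features did, and 0 a lower one, where 4.83% did. The authors' deposited table called 0 members changed in the supernatant, beside 0.942% of features called higher and 1.59% called lower.

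In the pellet table the column as a whole lay under the lysate: the log2 ratios had a median of -2.20 over all features and of -2.99 over the 36 members. At least 2-fold lower were 27 members, beside 86.5% of 3005 features, and at least 2-fold higher were 2 (Scarna17 and Snora81, both at 0 in the lysate), beside 8.75%. Relative to the median of all features, 17 members were lower by that margin, where 17.1% of features were, and 10 higher, where 14.6% were. Listed at 0 in the pellet were 11 members (30.6%), against 10.7% of all features. Of the 23 members above 0 in both columns, 16 were at least 2-fold lower, where 88.1% of such features were, and 0 higher, where 6.38% were. All 23 H/ACA genes listed had a median of -2.68 and the 13 other members one of -4.03, beside -2.20 over all features and -4.65 over microRNA genes. That H/ACA median holds 8 genes at 0 in the pellet. Without genes at 0 in either column the median was -1.45 over 14 H/ACA genes, -3.75 over 9 other members and -2.12 over all features, so the place of the H/ACA genes below or above all features turned on those at 0. In the authors' deposited table, 12 members had a q below 0.05 and a lower value, beside 69.4% of features, and 1 a higher value (Snora81), beside 5.59%. The authors' deposited table called 3 of them changed, Rnu11, Rnu12 and Rnu1b2, beside 18.7% of features called lower, and 0 members as higher, beside 0.699%.

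On the scale with the pseudocount of 1, the ACR IP was lower than the lysate by at least 2-fold for all 31 members listed, where 59% of 2539 features were lower and 36.4% higher. The IP value was 0 for 30 of the 31, against 41.2% of all features, and for 47 of 48 Snord genes. Features above 0 in both columns were higher in 54.4% and lower in 36.3% of cases, and Rnu1b2, the only such member, was lower. The MVH IP table listed 22 members and 8 were above 0 (36.4%), against 53.8% of all features, 3 of 38 Snord genes (7.89%) and 95.9% of microRNA genes. The 14 at 0 were 10 of the 12 H/ACA genes, Scarna17, Scarna9, Rnu73b and Vaultrc5. In round spermatids 15 of 16 members were above 0 (93.8%), against 96.8% of all features. Rnu11 and Rnu12 together made up 72.5% of the members' FPKM in the lysate, 71.2% in the supernatant, 50.2% in the pellet, 82.1% in the MVH IP and 24.8% in round spermatids.

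**Figure D4:**
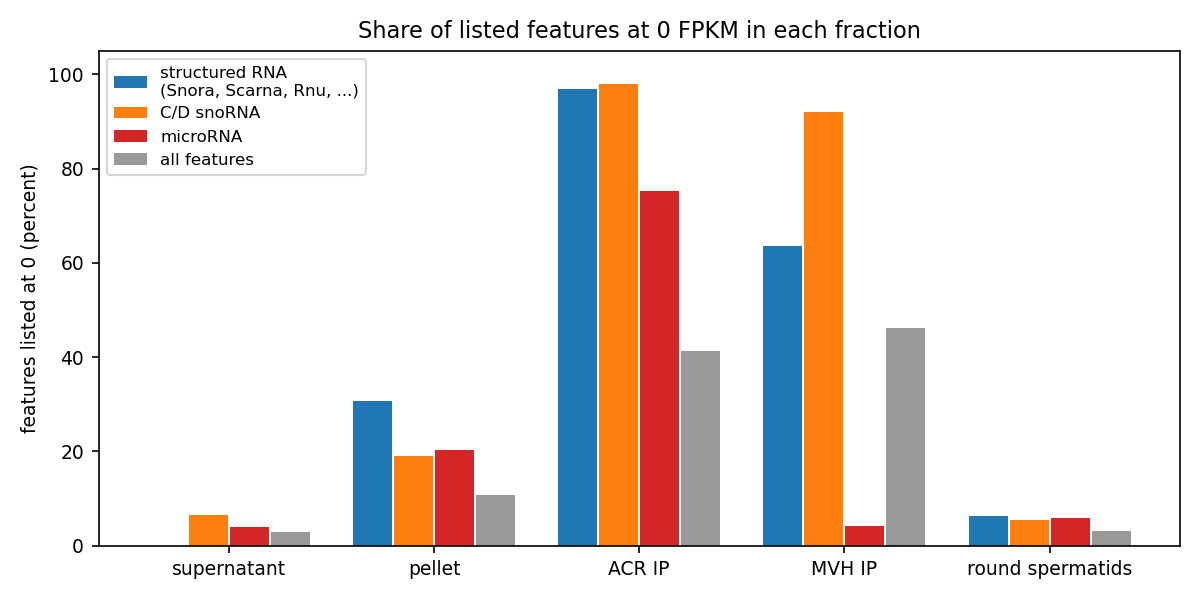
Bars give the percent of listed features at 0 FPKM in the fraction column of each table, for the structured RNA genes, C/D box snoRNA genes, microRNA genes and all features. The structured RNA genes are at 0% in the supernatant, 30.6% in the pellet and 96.8% in the ACR IP; of the 5 columns only the supernatant lists no structured RNA gene at 0.

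The supernatant and pellet ratios share the lysate library and are given side by side. For 36 members in both tables the median of supernatant minus pellet log2 ratio was 3.31, beside 2.13 over 2811 features, and 27 members lay at least 2-fold above, beside 90.2%, and 0 at least 2-fold below, beside 3.49%. Among 23 members above 0 in every column, 16 did, beside 91.2%. Without a pseudocount the supernatant to pellet distance was 54.7-fold for Scarna3a, 19.6-fold for Rpph1, 18.3-fold for Rnu12, 17.2-fold for Rnu11 and 16.2-fold for Rnu1b2. It was 1.22-fold for Snora70, 0.811-fold for Snora19 and 0.590-fold for Snora31 and Snora74a. The highest H/ACA gene in this order was Snora21 at 12.2-fold. The order covers only members above 0 in every column and leaves out the 8 H/ACA genes listed at 0 in the pellet. Counting errors of the pellet log2 ratios were 2.02 for Scarna3a, 1.07 for Rpph1, 0.17 for Rnu12, 2.33 for Snora31 and 4.02 for Snora19. Places within the order were not tested.

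The lysate library appears in 3 tables, which allows its values to be compared. The pellet table's lysate value was 2.39 times that of the supernatant table for all 34 members above 0 in both. The ACR IP table's lysate value was 0.871 of the pellet table's for 24 of 31 members, within 0.2%. The other 7 fell short of that common ratio, among them Rnu11 at 99.8% of it, Rnu12 at 99.7%, Rpph1 at 79.8% and Scarna3a at 66.7%, so the 3 lysate columns were not scaled copies of each other for every member.

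Most Snora genes lie in introns of other genes, and the supernatant table listed a host or other long gene at the same locus for 19 members, in 20 pairs. The member was above that gene in the supernatant in 20 of 20 pairs and in the lysate in 16 of 20, the other 4 being members listed at 0 there. Snora20 was at 2305.99 FPKM in the supernatant against 7.31222 FPKM for Tcp1, and Snora64 at 180.24 FPKM against 1.1968 FPKM for Rps2. The median ratio in the supernatant was 26.9. FPKM divides by model length, and a short model weighs each read more. Against small RNA genes at the same locus the order was mostly the other way: in 8 pairs with a Snord or Mir gene, the member was below it in the supernatant in 7. Snora33 was at 22.4035 FPKM against 1088.28 FPKM for Snord100, and Snora75 at 32.252 FPKM against 3355.54 FPKM for Snord82. No member overlapped any of the 196 piRNA clusters of the tables.

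Partner genes of structured RNAs, a list of 69 names, were sparse in these small RNA libraries. The list covers the H/ACA, Cajal body, spliceosomal, RNase P and vault particles. It also holds partners of 7SK, signal recognition particle, Y, 5S ribosomal and telomerase RNAs, which are not members, and the telomerase RNA gene Terc. Some names are older symbols of other genes in the list, such as Wdr79 for Wrap53, so it holds fewer genes than names. The supernatant table listed 20, with a median log2 ratio of 0.29, 0 at least 2-fold higher and 1 lower (Lsm7, an Sm-like protein), beside 7.16% and 5.42% of features. The pellet table listed 9, of which 7 were at least 2-fold lower, beside 86.5% of features, and 2 at 0. The ACR IP table listed 11, with 7 at least 2-fold higher and 4 lower, beside 36.4% and 59% of features. Of the higher genes, Gar1, Mvp, Rpp21 and Srp72 were below the minimum of 1 FPKM in the lysate. Only their IP value brought them in, so their direction was set by that minimum and no result is drawn from it. Wrap53, which directs guide RNAs to the Cajal body, was at 38.1106 FPKM in the ACR IP against 1.31921 FPKM, and Gar1, an H/ACA core protein, at 6.96556 FPKM against 0.928741 FPKM. The 4 lower were Rpl5 and Rpl11, ribosomal proteins that bind 5S rRNA, Rpp38 of RNase P and Srp14 of the signal recognition particle. Rpl5 was at 1.36663 FPKM against 18.7228 FPKM, and the other three were listed at 0 in the IP. The MVH IP table listed 27, of which 18 were above 0, beside 53.8% of features, Wrap53 at 25.1583 FPKM among them.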

How the data were processed

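Small RNA of 19-33 nt was sequenced in 8 libraries of 7 groups. TopHat, Cuffdiff and mm9 are named in the submitters' processing notes. Their versions are not given in the sources used here. Deposited values are FPKM in 5 tables. For the supernatant and the pellet there are also the authors' p-values, q-values and test statistics, a score whose size here gave the counting error as the log2 ratio divided by the statistic. Scores, p-values and q-values were deposited by the authors and not recomputed. Read totals per library are unknown, so no interval or detection limit is given, and 1 deposited column of per-sample values outside the small RNA libraries was left out. Loci are printed 1-based.

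Members were taken by name prefix in all tables. The members and gene lists were chosen with earlier results of these data known. A minimum of 1 FPKM in at least 1 of the columns was set for log2((fraction + 1)/(lysate + 1)), and 2-fold was the limit for higher or lower. With 1 library a group no test was made, and a counting error or authors' p describes those libraries. Alternatives were pseudocounts of 0.1 and 10, features above 0 in both columns, no minimum, centring on the median of all features, a minimum of 1 FPKM for the MVH IP and round spermatid counts, and, for the MVH IP, transcripts not summed per gene. Leaving out Rnu73a and Rnu73b and, for the ACR IP, keeping only members with the common lysate ratio were added after seeing the data.

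All members outside Snora were named. Of Snora, those named were the 6 highest in the lysate of the supernatant table, the 4 highest and 4 lowest ratios of each comparison among those above 0 in both columns, the highest of the MVH IP, and each one listed in round spermatids or above 0 in the ACR IP. Snora2b, Snora15, Snora17, Snora33, Snora34, Snora36b, Snora47 and Snora75, and the protein genes, hosts, microRNA genes and Snord2, were named after their values were seen where that rule does not cover them. Of 47 members, 46 matched a GENCODE M21 transcript by symbol, the longest being used. Python 3.11.15, numpy 2.4.6, pandas 2.3.3, Biopython 1.88 (alignment) and matplotlib 3.10.9 were used, and the ratio and call steps were tested on simulated data.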

Additional observations from a re-analysis of the deposited data

How the results depend on the processing

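No paired analysis was possible because every group has 1 value per gene and no number pairs the columns. Replicates could not be left out in turn, since the tables give 1 column per group. Of 68 alternative values, 55 stayed close to the reported value and none changed sign; those that moved follow, and the cause was not tested. In the supernatant, 3 members were at least 2-fold lower with a pseudocount of 10, and 3 were higher among those above 0 in both columns. In the pellet, members above 0 in both columns gave 0 higher and 16 lower. Centred on the median of all features, the pellet median was -0.79, with 10 higher and 17 lower. The ACR IP median was -10.72 with a pseudocount of 0.1, -4.52 with 10 and -4.94 when centred. Above 0 in both columns, 1 member of the ACR IP was lower. For supernatant against pellet, 16 members lay above when those above 0 in every column were used, and the centred median was 1.17. Counting errors, a median of 1.44 for H/ACA genes in the supernatant and 1.89 in the pellet, limit single ratios of that class.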
